A study of Mus musculus with 8 samples.

Results

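The mitochondrial respiratory chain and ATP synthase were read as 97 genes out of 13744 in RNA sequencing of classical monocytes, sorted as Ly6C-high cells out of mouse bone marrow. Members were taken by name: subunits of complexes I to V whose symbol begins Ndufa, Ndufb, Ndufc, Ndufs or Ndufv, Sdha to Sdhd, Uqcr, Cyc1, Cox4 to Cox8 or Atp5, and the protein genes of the mitochondrial genome. Of 111 matching names, 13 that hold -ps were left out. Of the remaining 98 genes, 97 had a mean level of at least 0 log2 CPM (reads per scaled library total, as deposited) over 8 libraries. The gene below that limit was Cox4i2, the second isoform of complex IV subunit 4, with a mean of -0.14, and those just above it were mt-Nd4l at 0.40 and Ndufa11b at 0.75. The nuclear genome held 84 members, of which 80 were protein-coding and 4 were annotated as processed pseudogenes (Cox6c2, Ndufa11b, Ndufb4c and Ndufs6b). The mitochondrial genome held the other 13. Complex I had 39 nuclear and 7 mitochondrial members, complex II had 4 nuclear members, complex III had 9 and 1, complex IV had 15 and 3, and complex V had 17 and 2. Ndufa4, long counted with complex I, was placed in complex IV.

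The 4 groups of 2 libraries were wild type, Bcl6 cKO, Irf2 KO and Nr4a1 KO. Bcl6 is a transcriptional repressor, Irf2 an interferon regulatory factor and Nr4a1 an orphan nuclear receptor. The labels give neither strain, age and sex nor the driver of the Bcl6 deletion, and they do not say whether the 2 libraries of a genotype came from separate mice, so a p-value reflects only how far these libraries spread, which may be technical. The series asks how these factors take part in the making of nonclassical monocytes. The comparison followed here is nuclear against mitochondrial members across the 4 genotypes.

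Respiratory chain complexes I, III and IV pump protons across the inner mitochondrial membrane while they pass electrons to oxygen, complex II feeds electrons in from succinate, and complex V uses the proton gradient to make ATP. Every complex but complex II joins subunits from both genomes. The mitochondrial genome is transcribed by its own polymerase as long precursors that are cut into the single messengers, while each nuclear subunit gene has its own promoter. Classical monocytes leave the bone marrow and can become nonclassical monocytes or tissue macrophages.

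Summed reads ran from 46617756 to 62633123 a library, and 1 CPM stood for 47.9 to 61.8 reads. Nr4a1 itself stood at 2.32 and 2.98 log2 CPM in Nr4a1 KO against 4.64 and 5.29 in wild type. It was also low in Irf2 KO, at 2.59 and 2.52. Irf2 stood at 6.50 and 6.69 in Irf2 KO against 7.18 and 7.14. Bcl6 was higher, at 6.53 and 6.40 against 4.66 and 4.64, in the libraries labelled Bcl6 cKO, so their direction rests on the label. These are whole-gene values, and the sources used here do not name the deleted exons. The 12 classical monocyte markers (Ly6c2, Ccr2, Lyz2 and others) were present and together made up 35848 and 41325 CPM in wild type, 38792 and 38833 in Bcl6 cKO, 22002 and 26608 in Irf2 KO, and 41673 and 42187 in Nr4a1 KO. The 12 neutrophil markers summed to 2235 and 1882 CPM in wild type, 1254 and 1041 in Bcl6 cKO, 514 and 1202 in Irf2 KO, and 2586 and 2146 in Nr4a1 KO. The 8 B cell genes found in the table summed to between 673 and 1036 CPM in every library, and the 7 dendritic cell genes to 133 and 216 in wild type, 358 and 420 in Irf2 KO and between 71.1 and 189 in the other 4. These sums do not follow each gene. In Irf2 KO against wild type the median log2 fold change was -1.83 over 6 dendritic cell genes tested and -3.28 over 5 B cell genes tested. Of 8 erythroid markers, the 4 globin genes were in the table, at 24.4 and 25.4 CPM in wild type and 2.62 and 4.87 in Irf2 KO. Of 8 T and NK cell markers, Nkg7 was in the table, at 7.36 to 20.8 CPM.

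Per kilobase of all annotated exon bases, the highest member was a mitochondrial one. The gene for cytochrome b, mt-Cytb, stood at 10.41 log2 CPM per kilobase, mt-Co1 (the catalytic subunit of complex IV) at 10.30 and mt-Nd1 at 10.19. The highest nuclear members of each complex were Ndufa1 at 9.16, Sdhd (a membrane anchor of complex II) at 8.06, Uqcr10 at 9.45, Cox4i1 at 9.54 and Atp5k at 8.79 on the same scale. The lowest were Ndufb2 at 0.55, Sdhc at 5.43, Cyc1 (cytochrome c1) at 3.56, Cox7a1 (the muscle form of subunit 7a) at 1.73 and Atp5l at 4.92. Some of these ranks come from the divisor, and the other divisor was chosen after seeing the data. Per kilobase of the longest protein-coding transcript, Atp5l stood at 8.48 and Atp5d was the lowest nuclear member of complex V at 5.74. Atp5l also has a longer transcript that is not protein-coding. On that scale Cox4i1 at 10.56 was above mt-Cytb at 10.41. The subunits of one complex thus spanned a wide range of messenger levels in these cells. Of the mitochondrial members, mt-Nd4l at 2.15 and mt-Atp8 at 3.21 were the lowest per kilobase. In the annotation mt-Atp8 shares 43 bases with mt-Atp6 and mt-Nd4l shares 7 with mt-Nd4, and how reads over 2 genes were counted was not stated for these files.

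Together the nuclear members took 2.12% to 2.60% of the reads and the mitochondrial members 0.567% to 0.775%. Summed over the nuclear members, the level was 21891 and 22304 CPM in wild type, 22612 and 23241 in Bcl6 cKO, 24825 and 26641 in Irf2 KO, and 20229 and 21392 in Nr4a1 KO. On this scale both Irf2 KO libraries lay above the other 6 and both Nr4a1 KO libraries below them. As a share of reads the nuclear members took 2.12% and 2.20% in Nr4a1 KO and 2.15% and 2.18% in wild type, which overlap, since the deposited CPM uses a scaled library total. Summed over the mitochondrial members, the level was 5771 and 5871 CPM in wild type, 6440 and 6671 in Bcl6 cKO, 6425 and 6069 in Irf2 KO, and 7379 and 6371 in Nr4a1 KO. Both wild type libraries lay below the 6 others. The nuclear sum was 3.79 and 3.80 times the mitochondrial sum in wild type, 3.51 and 3.48 times in Bcl6 cKO, 3.86 and 4.39 times in Irf2 KO, and 2.74 and 3.36 times in Nr4a1 KO. In such bulk libraries, fewer cells of a type and less RNA per cell cannot be told apart.

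In Irf2 KO against wild type, nuclear members were mostly higher by modest amounts. Of 84 nuclear members, 35 rose and 3 fell (limma, adjusted p under 0.05), where 21.6% of all 12752 genes tested were called, 9.26% higher and 12.3% lower. Their median log2 fold change was 0.31, against -0.04 over all genes tested. In Nr4a1 KO, 12 nuclear members rose and 13 fell, with a background of 15.1% called, 3.94% higher and 11.2% lower, and a median of 0.13 against 0.01. With each library centred on its median, which moved the all-gene median there to 0.14, 27 rose and 11 fell, and in Bcl6 cKO 12 rose and 6 fell. In Bcl6 cKO, 7 rose and 7 fell, with a background of 5.01% called, 1.36% higher and 3.65% lower, and a median of 0.17 against -0.01. All 3 comparisons share the 2 wild type libraries. By limma no mitochondrial member fell in these comparisons, at an unadjusted p of 0.05 also 0 and by voom 0, while 7 rose in Nr4a1 KO (median log2 fold change 0.39), 4 in Irf2 KO (0.26) and 2 in Bcl6 cKO (0.29).

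**Figure D1:**
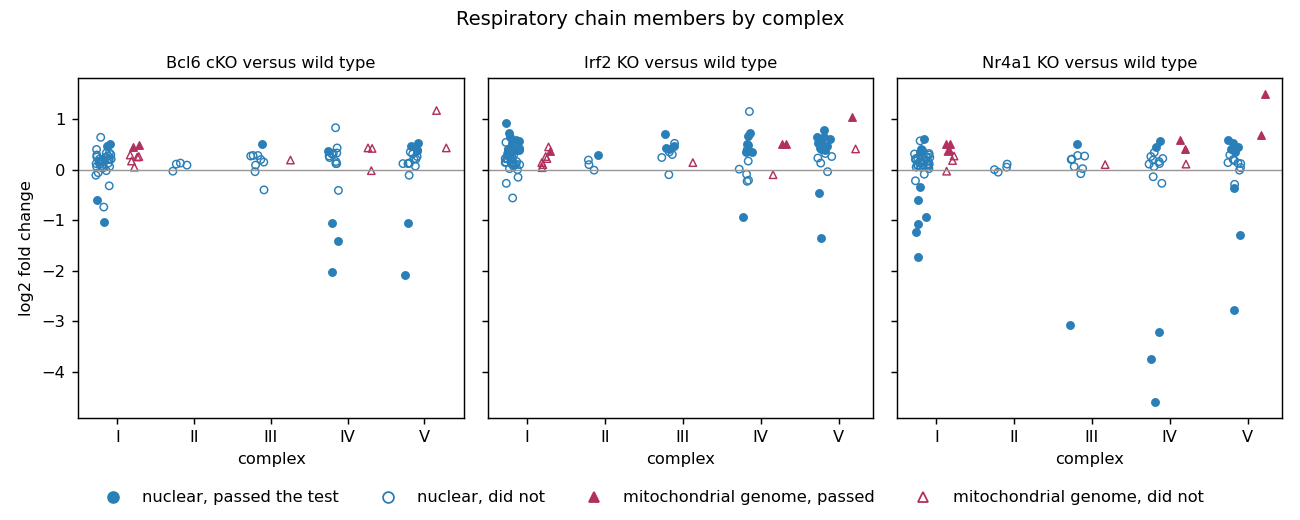
Log2 fold change (vertical axis) of every member against wild type, by complex (horizontal axis), for each knockout; circles are nuclear and triangles mitochondrial members, filled where the limma test passed. Most points lie between 0 and 1, and a few nuclear members of complexes I, III, IV and V lie far below 0 in Nr4a1 KO, down to -4.60.

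The largest falls were in Nr4a1 KO, and 3 of them were subunits of complex IV: Cox6a1 (chr5:115345642-115348981, minus strand of GRCm38), Cox8a (chr19:7215153-7217616, minus) and Cox5b (chr1:36691449-36693681, plus). Cox6a1, the non-muscle form of subunit 6a, stood at 9.32 and 9.64 log2 CPM in wild type, 8.06 and 8.79 in Bcl6 cKO, 9.27 and 9.52 in Irf2 KO, and 4.64 and 5.11 in Nr4a1 KO. Nr4a1 KO lay far below every other library, and Irf2 KO overlapped wild type. The fall in Nr4a1 KO was 24.3-fold (log2 fold change -4.60, SE 0.24, limma adjusted p = 1.7e-05). It rested on 1274 and 1659 reads in Nr4a1 KO against 37064 and 40960 in wild type. Cox8a, the ubiquitous form of the small subunit 8, stood at 8.70 and 8.80 log2 CPM in wild type, 6.94 and 7.72 in Bcl6 cKO, 8.39 and 8.65 in Irf2 KO, and 4.91 and 5.13 in Nr4a1 KO. The order of the genotypes was as for Cox6a1, with both Irf2 KO libraries just under wild type. The fall was 13.3-fold in Nr4a1 KO (log2 fold change -3.74, SE 0.22, limma adjusted p = 2.3e-05) and 2.68-fold in Bcl6 cKO (-1.42, SE 0.22, adjusted p = 0.0111). Cox5b, a zinc-binding subunit on the matrix side, stood at 8.20 and 7.75 log2 CPM in wild type, 5.64 and 6.25 in Bcl6 cKO, 6.82 and 7.24 in Irf2 KO, and 4.69 and 4.81 in Nr4a1 KO. All 6 knockout libraries lay below both wild type libraries. Cox5b fell 9.35-fold in Nr4a1 KO (log2 fold change -3.22, SE 0.23, limma adjusted p = 4.8e-05), 4.08-fold in Bcl6 cKO (-2.03, adjusted p = 0.00402) and 1.92-fold in Irf2 KO (-0.94, adjusted p = 0.0228).

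None of the other 12 nuclear members of complex IV was called lower in Nr4a1 KO. Cox4i1, the main form of subunit 4, stood between 10.01 and 10.28 log2 CPM in all 8 libraries. Cox6b1, Cox6c, Cox7b and Cox7c had mean levels in Nr4a1 KO at or above those in wild type. Cox5a, which binds next to subunit 4, stood at 3.01 and 2.80 in wild type and at 2.42 and 2.83 in Nr4a1 KO, and was not called.

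Uqcrc1, core protein 1 of complex III, stood at 9.83 and 9.96 log2 CPM in wild type, 9.40 and 9.59 in Bcl6 cKO, 9.67 and 9.92 in Irf2 KO, and 6.55 and 7.11 in Nr4a1 KO. The Nr4a1 KO libraries alone were far down, by 8.41-fold against wild type (log2 fold change -3.07, SE 0.17, limma adjusted p = 2.0e-05). Its partner Uqcrc2, core protein 2, stood at 7.35 and 7.21 in wild type and 7.47 and 7.49 in Nr4a1 KO, and Uqcrfs1, the Rieske iron-sulfur protein, stood at 4.98 and 5.07 against 5.29 and 5.29. Neither was called.

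In complex V the falls were in the catalytic head and central stalk. Atp5d, the delta subunit of the stalk, stood at 7.98 and 7.60 log2 CPM in wild type, 5.48 and 5.91 in Bcl6 cKO, 6.25 and 6.62 in Irf2 KO, and 4.93 and 5.11 in Nr4a1 KO. The 3 knockouts lay below wild type without overlap, Nr4a1 KO lowest. Atp5d fell 6.83-fold in Nr4a1 KO (log2 fold change -2.77, SE 0.19, limma adjusted p = 4.2e-05), 4.27-fold in Bcl6 cKO and 2.56-fold in Irf2 KO. Atp5b, the catalytic beta subunit, stood at 9.38 and 9.16 log2 CPM in wild type, 8.10 and 8.32 in Bcl6 cKO, 8.63 and 8.97 in Irf2 KO, and 7.98 and 7.96 in Nr4a1 KO. It also lay lower in every knockout library, by 2.46-fold in Nr4a1 KO (-1.30, adjusted p = 0.000324), 2.08-fold in Bcl6 cKO (-1.06, adjusted p = 0.00589) and 1.38-fold in Irf2 KO (-0.47, limma adjusted p = 0.0384). Atp5a1, the alpha subunit, fell 1.28-fold in Nr4a1 KO (-0.36, adjusted p = 0.0298; -0.01 and not called once GC content and length were corrected for), and Atp5c1, the gamma subunit, stood between 9.52 and 9.76 in all libraries.

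In complex I, Ndufa6, an accessory subunit that holds an acyl carrier protein, stood at 8.38 to 8.53 in the 6 other libraries and at 7.28 and 7.49 in Nr4a1 KO, a 2.10-fold fall (-1.07, adjusted p = 0.000217). Ndufa10, another accessory subunit, stood at 7.05 and 6.34 in wild type, 5.50 and 5.82 in Bcl6 cKO, 5.96 and 6.31 in Irf2 KO, and 5.56 and 5.38 in Nr4a1 KO. It fell by 1.23 on the log2 scale in Nr4a1 KO (adjusted p = 0.00802) and by 1.03 in Bcl6 cKO (adjusted p = 0.0393).

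Ndufs3, a core subunit of the complex I matrix arm, was the one member with opposite calls. It stood at 6.60 and 6.55 log2 CPM in wild type, 6.62 and 6.74 in Bcl6 cKO, 6.83 and 7.08 in Irf2 KO, and 5.93 and 5.99 in Nr4a1 KO, with no overlap between Irf2 KO and Nr4a1 KO. The difference between these knockouts was 0.99 (SE 0.11, limma adjusted p = 0.000585). With the GC content and length correction, Ndufs3 in Irf2 KO (adjusted p = 0.0535), Ndufv2 in Irf2 KO (0.105) and Ndufs7 in Nr4a1 KO (0.457) were no longer called. The log2 fold change of Ndufs7 also changed sign, to 0.10. The annotated copy of Ndufs3, Gm12251, holds 35.5% of the 50-base words of the Ndufs3 transcript. It stood at 2.15 and 1.94 in wild type, 2.79 and 2.89 in Irf2 KO and 1.73 and 1.98 in Nr4a1 KO.

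**Figure D2:**
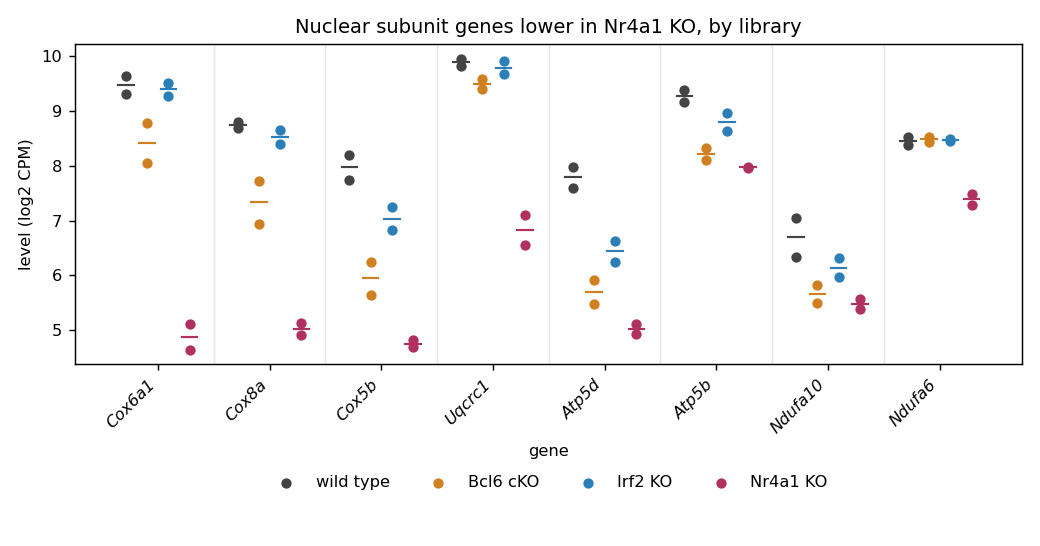
Level in log2 CPM (vertical axis) of 8 nuclear members (horizontal axis) in each library, coloured by genotype; horizontal bars are the means of 2 libraries. The Nr4a1 KO mean was the lowest for each of the 8 genes. For Cox5b, Atp5d and Atp5b, and narrowly for Cox8a and Ndufa10, all 6 knockout libraries lay below wild type.

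The deepest falls held without any single library. In each of 8 fits that left out 1 library, Cox6a1, Cox8a, Cox5b, Uqcrc1, Atp5d, Atp5b and Ndufa10 remained called lower in Nr4a1 KO. In Bcl6 cKO, of 15 named calls Atp5d was the one that remained in all 8. Cox5b and Atp5b lost their Bcl6 cKO call without Bcl6 cKO replicate 1 (adjusted p = 0.0555 and 0.0832), and Cox8a without that library or either wild type library. In Bcl6 cKO, Cox6a1 and Ndufa10 were also not called with the GC content and length correction (adjusted p = 0.0583 and 0.0756). In Irf2 KO, Cox5b lost its call when Irf2 KO replicate 1 or wild type replicate 1 was left out (adjusted p at most 0.129), and Atp5b without 5 of the 8 libraries (both wild type, both Bcl6 cKO and Irf2 KO replicate 1, adjusted p up to 0.203) and with the correction (0.121). No other gene held any 50-base word of the longest transcripts of Uqcrc1, Cox8a, Atp5d, Ndufa10 and Ndufa6. For Cox5b, Gm11273 held 25.9% of them and stood at 5.03 and 4.60 log2 CPM in wild type, 2.83 and 3.18 in Bcl6 cKO, 4.23 and 4.17 in Irf2 KO, and 2.01 and 2.44 in Nr4a1 KO. It was low in the same libraries as Cox5b. For Cox6a1, AC148174.2 held 7.18% of the words. This copy stood at 3.31 and 3.76 log2 CPM in wild type and -1.82 and 0.21 in Nr4a1 KO. In Bcl6 cKO it stood at 1.94 and 2.62, and in Irf2 KO at 3.60 and 3.61.

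The promoters of the 4 genes with the largest falls, and of Atp5md, which was higher in each knockout, are shown to set the sequence beside the opposite changes. Each line runs from 250 bases before to 50 after the start in RefSeq GRCm38.p6. Capitals mark 2 motifs, searched on both strands: a palindromic site form of NRF1, which drives many respiratory chain genes and is the capital run shared by Cox6a1 and Uqcrc1, and CCGGAAG, a core of the ETS factors that include GABPA, which appears here as its reverse complement. The windows are Cox6a1 at chr5:115348909-115349208 (minus strand), Cox8a at chr19:7217567-7217866 (minus), Uqcrc1 at chr9:108936398-108936697 (plus), Cox5b at chr1:36691237-36691536 (plus) and Atp5md at chr19:47090598-47090897 (minus).
Cox6a1: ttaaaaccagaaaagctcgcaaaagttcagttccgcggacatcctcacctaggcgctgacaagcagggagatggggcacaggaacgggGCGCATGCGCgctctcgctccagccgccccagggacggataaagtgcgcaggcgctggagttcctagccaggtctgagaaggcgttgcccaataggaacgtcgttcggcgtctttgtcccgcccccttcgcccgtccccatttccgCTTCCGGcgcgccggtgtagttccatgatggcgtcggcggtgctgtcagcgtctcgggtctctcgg
Cox8a: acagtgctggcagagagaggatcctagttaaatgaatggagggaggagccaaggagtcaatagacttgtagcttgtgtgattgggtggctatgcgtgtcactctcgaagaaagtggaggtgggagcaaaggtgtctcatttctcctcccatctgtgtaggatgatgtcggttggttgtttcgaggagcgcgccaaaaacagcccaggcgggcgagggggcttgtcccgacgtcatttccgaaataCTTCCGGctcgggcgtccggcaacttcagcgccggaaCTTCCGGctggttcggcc
Uqcrc1: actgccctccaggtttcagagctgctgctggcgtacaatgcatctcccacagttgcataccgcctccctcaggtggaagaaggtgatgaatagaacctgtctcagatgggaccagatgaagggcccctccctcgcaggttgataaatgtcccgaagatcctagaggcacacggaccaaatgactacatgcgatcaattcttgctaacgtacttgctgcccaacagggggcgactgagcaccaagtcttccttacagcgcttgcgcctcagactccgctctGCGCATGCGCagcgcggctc
Cox5b: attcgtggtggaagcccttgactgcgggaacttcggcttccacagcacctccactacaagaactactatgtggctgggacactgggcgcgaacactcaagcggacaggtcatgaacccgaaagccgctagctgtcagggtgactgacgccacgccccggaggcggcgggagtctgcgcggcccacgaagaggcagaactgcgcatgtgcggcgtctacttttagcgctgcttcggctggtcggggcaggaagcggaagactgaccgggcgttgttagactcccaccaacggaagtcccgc
Atp5md: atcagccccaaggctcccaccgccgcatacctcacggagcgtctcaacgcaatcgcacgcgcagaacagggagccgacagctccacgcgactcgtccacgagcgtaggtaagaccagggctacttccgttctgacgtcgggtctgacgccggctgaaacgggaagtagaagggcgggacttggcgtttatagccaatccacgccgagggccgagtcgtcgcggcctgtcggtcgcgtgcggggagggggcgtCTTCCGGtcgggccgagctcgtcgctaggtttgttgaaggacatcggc

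Cox6a1 held both motifs, Cox8a held the ETS core in 2 places, Uqcrc1 held the NRF1 form, Cox5b held neither and Atp5md held the ETS core. Of 84 nuclear members, 67 had a promoter entry. The NRF1 form was in 5 of these 67 (7.46%), against 0.977% of all 27025 promoters and 2.28% of those of 8677 tested genes. The ETS core was in 16 (23.9%), against 9.12% and 20.6%. AAGATGGC, a core of YY1, was in 9 (13.4%), against 2.88% and 5.42%. Among 11 genes lower in Nr4a1 KO the NRF1 form was in 2, the ETS core in 3 and the YY1 core in 1. Among 29 genes higher in Irf2 KO these motifs were in 2, 9 and 2. A match describes these letters in this window.

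Against these falls, 6 nuclear members rose in each of the 3 knockouts. The share of all genes called higher in all 3 was not counted, and these comparisons share the wild type libraries. Ndufa5, an accessory subunit of the matrix arm of complex I, stood at 6.74 and 6.66 log2 CPM in wild type, 7.25 and 7.16 in Bcl6 cKO, 7.61 and 7.64 in Irf2 KO, and 7.31 and 7.32 in Nr4a1 KO. All knockout libraries lay above wild type, Irf2 KO highest. It rose 1.90-fold in Irf2 KO (log2 fold change 0.92, SE 0.09, limma adjusted p = 0.00115), 1.53-fold in Nr4a1 KO (0.61, adjusted p = 0.00222) and 1.42-fold in Bcl6 cKO (0.51, adjusted p = 0.0165). Atp5md, a small subunit of the ATP synthase dimer, stood at 7.12 and 7.07 in wild type, 7.67 and 7.57 in Bcl6 cKO, 7.88 and 7.89 in Irf2 KO, and 7.59 and 7.78 in Nr4a1 KO. Its order was the same as that of Ndufa5, with log2 fold changes of 0.52, 0.79 and 0.59 in Bcl6 cKO, Irf2 KO and Nr4a1 KO. Atp5mpl, another small membrane subunit of complex V, had log2 fold changes of 0.46, 0.65 and 0.45 in that order of genotypes. Uqcrb, a subunit near the quinone site of complex III, had 0.50, 0.70 and 0.51, Atp5l, the g subunit of complex V, had 0.39, 0.46 and 0.52, and Ndufc1, a membrane-arm subunit of complex I, had 0.46, 0.59 and 0.38.

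After the correction for GC content and length, Ndufa5, Atp5md and Atp5mpl remained called higher in the 3 knockouts. Uqcrb and Atp5l were no longer called in any (adjusted p from 0.0588 to 0.539), and Ndufc1 was called in Irf2 KO alone. In Nr4a1 KO, Ndufc1 lost its call in 5 of the 8 fits that left out 1 library (all but those without a Bcl6 cKO library or Nr4a1 KO replicate 1), Atp5mpl without wild type replicate 2 or Nr4a1 KO replicate 2, and Uqcrb without wild type replicate 2. In Irf2 KO, Atp5l lost its call without Irf2 KO replicate 2. In Bcl6 cKO the call of each of these 6 was lost without either Bcl6 cKO library or either wild type library.

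The rises in Irf2 KO counted 13 of 39 nuclear members in complex I, 1 of 4 in complex II (Sdhd), 4 of 9 in complex III, 7 of 15 in complex IV and 10 of 17 in complex V. Of all genes tested, 9.26% were called higher there. Under the GC content and length correction, Cox7a2 alone of the complex IV rises and Uqcrq alone of those in complex III remained called. Cyc1 of complex III, not called before, was then called higher. The Sdhd call (0.29, limma adjusted p = 0.0480) was lost without any one of the wild type, Bcl6 cKO or Irf2 KO libraries, and with the GC content and length correction (0.111). Besides Ndufa5 and Atp5md, those with the largest rises were Ndufa12, an accessory subunit of the matrix arm, Cox7a2, the liver form of subunit 7a, Uqcrb (0.70, given above) and Cox6c2, a pseudogene. Ndufa12 stood at 7.50 and 7.42 log2 CPM in wild type and 8.13 and 8.24 in Irf2 KO, with Bcl6 cKO at 7.93 and 7.80 and Nr4a1 KO at 7.72 and 7.83 between them. Its log2 fold change in Irf2 KO was 0.73 (SE 0.10, limma adjusted p = 0.00272). Cox7a2 stood at 8.26 and 8.21 in wild type, 8.56 and 8.54 in Bcl6 cKO, 8.84 and 9.07 in Irf2 KO, and 8.29 and 8.50 in Nr4a1 KO. It rose by 0.72 in Irf2 KO (SE 0.11, adjusted p = 0.00415). Cox6c2 rose by 0.67, but 52.7% of its 50-base words are also in Cox6c, which rose by 0.34, so reads of these genes may have been split between them.

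The number of these rises depended on the libraries and on GC content. Nuclear members called higher in Irf2 KO numbered 14 without Irf2 KO replicate 2, 23 without Irf2 KO replicate 1, 18 without wild type replicate 1 and 20 without wild type replicate 2, against 35 with all libraries. With the GC content and length correction 17 were called higher, not all of them the same genes. Of the 42 members of both genomes called in either direction, 15 remained called. Cyc1, Ndufv3, Sdhc and Atp5g2 were called higher with the correction and not before it. Neutrophil markers fell in the same comparison, with 6 of 12 called lower and none higher, as did 4 of 4 globin genes, 3 of 5 B cell genes tested and 6 of 12 classical monocyte markers. Of 6 dendritic cell genes tested, 3 fell and Bst2 rose (1.73), and Nkg7 of the T and NK cell list was higher (0.89). The part of these markers in the rises was not tested.

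The c subunit of ATP synthase, which forms the rotor ring, is made from 3 genes that encode the same mature protein. Atp5g3 stood at 7.99 and 8.08 log2 CPM in wild type, 8.49 and 8.64 in Irf2 KO and 7.75 and 7.75 in Nr4a1 KO, and rose by 0.53 in Irf2 KO (SE 0.09, limma adjusted p = 0.00667). Atp5g1 stood at 7.74 and 7.83 in wild type and 8.26 and 8.59 in Irf2 KO, a rise of 0.64 (SE 0.12, adjusted p = 0.00889). Atp5g2 stood at 7.62 and 7.89 in wild type and 8.05 and 8.09 in Irf2 KO and was not called (0.32, adjusted p = 0.0951). With the GC content and length correction Atp5g2 was called higher (0.35, adjusted p = 0.0381) and Atp5g3 was not (0.30, adjusted p = 0.0655), so no difference between these isoforms is shown. The Atp5g1 call was lost without Irf2 KO replicate 2 (adjusted p = 0.0506). Of the subunit 7a family, Cox7a2l, which helps complexes III and IV join, stood at 7.93 and 7.82 in wild type, 7.99 and 8.09 in Bcl6 cKO, 7.89 and 7.89 in Irf2 KO, and 8.41 and 8.23 in Nr4a1 KO. It rose by 0.44 in Nr4a1 KO alone of the comparisons with wild type (SE 0.10, adjusted p = 0.0180) and was lower in Irf2 KO than in Nr4a1 KO by -0.43 (adjusted p = 0.0157). The Cox7a2l call against wild type was lost without wild type replicate 2 or Nr4a1 KO replicate 1. Over the fits that left out 1 library its log2 fold change ran from 0.35 to 0.53. That call was also lost with only the 2 groups compared and without a trend of the prior variance. Cox7a1 rested on 43 to 156 reads a library and was not called.

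As deposited, every called mitochondrial gene was higher than in wild type, and none of these calls remained with the GC content and length correction. Of the 13 mitochondrial genes, called or not, 8 had both wild type libraries below all 6 knockout libraries: mt-Nd1, mt-Nd2, mt-Nd6, mt-Cytb, mt-Co2, mt-Co3, mt-Atp6 and mt-Atp8. How often all tested genes show this order was not counted, so it is not read as particular to mitochondrial genes. For mt-Nd2, a complex I core subunit, wild type stood at 7.77 and 7.71 log2 CPM, Bcl6 cKO at 8.16 and 8.22, Irf2 KO at 8.06 and 8.14, and Nr4a1 KO at 8.15 and 8.11. All 6 knockout libraries lay above wild type, both Bcl6 cKO libraries highest, while Irf2 KO and Nr4a1 KO overlapped, with log2 fold changes of 0.45 (adjusted p = 0.0231), 0.36 (0.0208) and 0.39 (limma adjusted p = 0.0172), and mt-Nd2 was the mitochondrial gene that passed in all 3. For mt-Co2, the complex IV subunit that takes electrons from cytochrome c, wild type stood at 5.97 and 5.97, Bcl6 cKO at 6.39 and 6.40, Irf2 KO at 6.55 and 6.40, and Nr4a1 KO at 6.67 and 6.45. It rose by 0.59 in Nr4a1 KO (adjusted p = 0.00889) and 0.50 in Irf2 KO (adjusted p = 0.0166), while 0.42 in Bcl6 cKO had an adjusted p of 0.0729. For mt-Co3, another core subunit of complex IV, the log2 fold change was 0.43 in Bcl6 cKO, which was not called (adjusted p = 0.0649), 0.40 in Nr4a1 KO and 0.50 in Irf2 KO (adjusted p = 0.0421 and 0.0156).

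In Nr4a1 KO the ATP synthase genes of the mitochondrial genome had the largest mitochondrial log2 fold changes. For mt-Atp8, a small membrane subunit, wild type stood at -0.09 and 0.06 log2 CPM, Bcl6 cKO at 1.18 and 1.12, Irf2 KO at 1.22 and 0.85, and Nr4a1 KO at 1.52 and 1.45, from 53 to 146 reads a library. It rose 2.82-fold in Nr4a1 KO (SE of the log2 value 0.29, limma adjusted p = 0.00912) and 2.07-fold in Irf2 KO (adjusted p = 0.0341). For mt-Atp6, which forms the proton channel, wild type stood at 6.52 and 6.30 and Nr4a1 KO at 7.16 and 7.02, a rise of 0.68 (SE 0.14, adjusted p = 0.0111). In Nr4a1 KO mt-Nd1 rose by 0.50 (adjusted p = 0.00928), from 9.92 and 9.83 to 10.49 and 10.27. The gene mt-Nd6, encoded on the other strand from the rest, rose by 0.51 in Nr4a1 KO (adjusted p = 0.00919) and 0.49 in Bcl6 cKO (adjusted p = 0.0278). The libraries were made with a kit that does not mark strand, so reads from mt-Nd6 and from transcripts of the opposite strand cannot be told apart.

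The other 6 mitochondrial genes were called in no comparison with wild type. In the order Nr4a1 KO, Irf2 KO, Bcl6 cKO, log2 fold changes of mt-Co1 were 0.11, -0.10 and -0.02, and those of mt-Cytb were 0.10, 0.14 and 0.19. Values for mt-Nd4 were 0.27, 0.04 and 0.29, for mt-Nd5 0.18, 0.10 and 0.17, for mt-Nd3 -0.03, 0.14 and 0.26, and for mt-Nd4l 0.36, 0.45 and 0.05. Of the 13 mitochondrial calls, those of mt-Atp8 and mt-Co2 in Nr4a1 KO were kept in all 8 fits that left out 1 library. Without wild type replicate 2 the Nr4a1 KO comparison kept 2 of its 7.

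**Figure D3:**
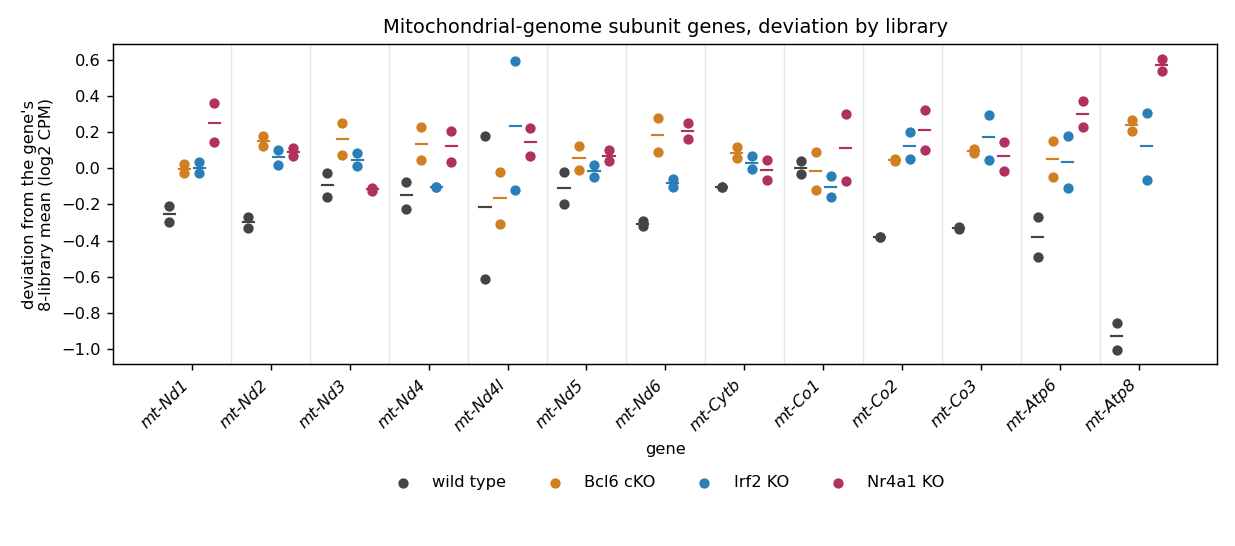
Deviation of each of the 13 mitochondrial genes (horizontal axis) from its mean over 8 libraries, in log2 CPM (vertical axis), coloured by genotype, with bars at the means of 2 libraries. Wild type lies below all knockout libraries for mt-Nd1, mt-Nd2, mt-Nd6, mt-Cytb, mt-Co2, mt-Co3, mt-Atp6 and mt-Atp8.

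Part of the mitochondrial signal is shared with the nuclear genome. On chromosome 1, between positions 24611535 and 24616197 of GRCm38, lie 6 annotated pseudogenes that copy mt-Atp6, mt-Co1, mt-Co2, mt-Co3, mt-Nd3 and mt-Nd4, and 5 of them match the mitochondrial gene at 100% of the aligned bases. The copy of mt-Atp6, Gm10925, stood at 6.46 and 6.46 log2 CPM in wild type and 7.20 and 7.13 in Nr4a1 KO, close to mt-Atp6 itself. The copy of mt-Co2, Gm28661, stood at 6.17 and 6.23 in wild type and 6.90 and 6.65 in Nr4a1 KO, also above wild type. Where the genes are identical, the reads of mitochondrial gene and copy cannot be told apart. With the copies' reads added to the mitochondrial genes, mt-Atp6 also passed in Irf2 KO (0.49, adjusted p = 0.0346), and mt-Co3 no longer passed in Nr4a1 KO (adjusted p = 0.0550).

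To set the genomes against each other, the median deviation of the nuclear members from their 8-library means was compared with that of the mitochondrial members in each library. The nuclear minus mitochondrial value was 0.07 and 0.18 (log2) in wild type, -0.06 and -0.05 in Bcl6 cKO, 0.10 and 0.28 in Irf2 KO, and -0.29 and -0.06 in Nr4a1 KO. Bcl6 cKO and Nr4a1 KO lay below wild type, and Irf2 KO overlapped it. Relative to the wild type mean of 0.12 ± 0.07 (SD, n = 2), the value was -0.30 in Nr4a1 KO, -0.18 in Bcl6 cKO and 0.07 in Irf2 KO, with SDs between libraries of 0.16, 0.01 and 0.13. No p-value is given for a score over chosen genes.

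The mean contrast between the genomes changed with a correction for GC content. The transcripts of the mitochondrial members had a median GC content of 37.1% (31.9% to 41.1%), the nuclear members 51.1% (38.4% to 63.3%) and all genes 49.4%. Over all genes, the deviation per 10 points of GC content was 0.14 and 0.23 log2 in the wild type libraries, -0.09 and 0.00 in Bcl6 cKO, 0.00 and 0.03 in Irf2 KO, and -0.13 and -0.17 in Nr4a1 KO. Once each library was corrected by a smooth curve over GC content and length, the nuclear minus mitochondrial value relative to wild type was 0.22 in Irf2 KO, 0.14 in Bcl6 cKO and 0.12 in Nr4a1 KO, so the sign of the mean turned in Bcl6 cKO and Nr4a1 KO. The corrected library values were -0.10 and -0.10 in wild type, 0.08 and 0.00 in Bcl6 cKO, and -0.14 and 0.19 in Nr4a1 KO (SD 0.23, n = 2), so 1 Nr4a1 KO library still lay below wild type. After that correction no mitochondrial member was called higher in any comparison with wild type, and mt-Nd3 was called lower in Nr4a1 KO (-0.73, limma adjusted p = 0.0116). The mitochondrial members all lie at the low end of GC content, so GC content and genome of origin cannot be told apart among them.

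**Figure D4:**
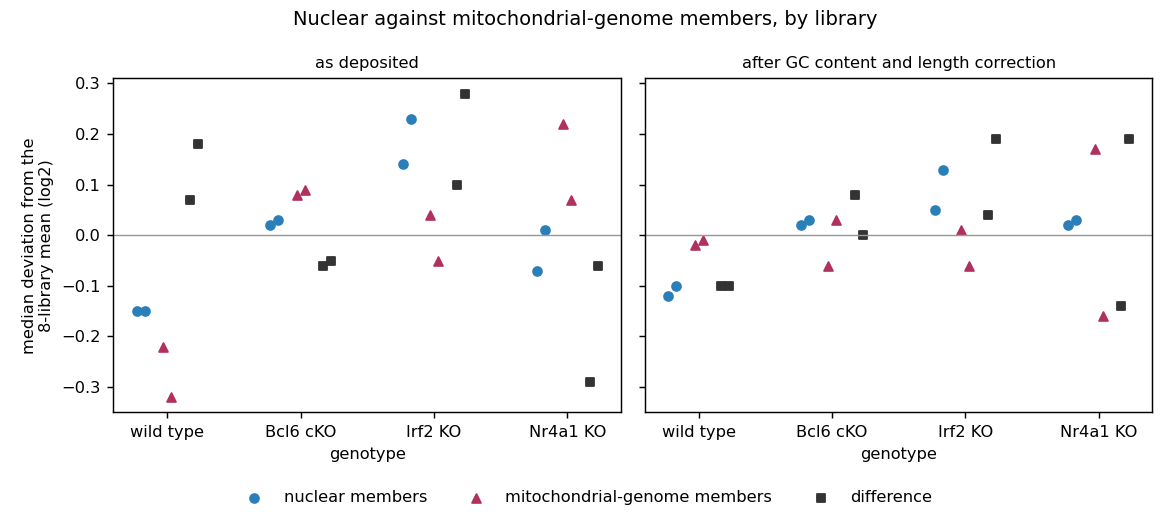
Median deviation (log2, vertical axis) of nuclear members, of mitochondrial members and their difference, in each library by genotype (horizontal axis), as deposited (left) and after the GC content and length correction (right). The wild type mitochondrial values move from -0.22 and -0.32 to -0.02 and -0.01.

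Among nuclear members, GC content went with the calls as well. The 12 genes higher in Nr4a1 KO had a median GC content of 49.3%, the 13 lower genes 53.8% and the 59 others 50.5%. In Bcl6 cKO these medians were 44.1%, 53.7% and 51.1% for 7, 7 and 70 genes. The correlation of log2 fold change with GC content over 84 nuclear members was -0.31 (Pearson) and -0.34 (Spearman) in Nr4a1 KO, beside -0.32 and -0.35 over 12740 tested genes with a GC value, which share these libraries. Of the 12 nuclear members with a GC content of 57% or more, several were among the largest falls and others did not move: Cox6a1 (58.8%), Cox8a (58.5%), Uqcrc1 (57.5%) and Atp5d (59.3%) fell, while Cox4i1 (58.0%), Ndufa13 (60.4%) and Ndufb7 (59.7%) were not called. With the correction these last 3 were called higher in Nr4a1 KO, with log2 fold changes of 0.43, 0.65 and 0.40. The corrected log2 fold changes of the genes that fell were -4.31 for Cox6a1, -3.47 for Cox8a, -3.33 for Cox5b, -2.58 for Uqcrc1, -2.24 for Atp5d and -1.13 for Atp5b, and all of these remained called.

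**Figure D5:**
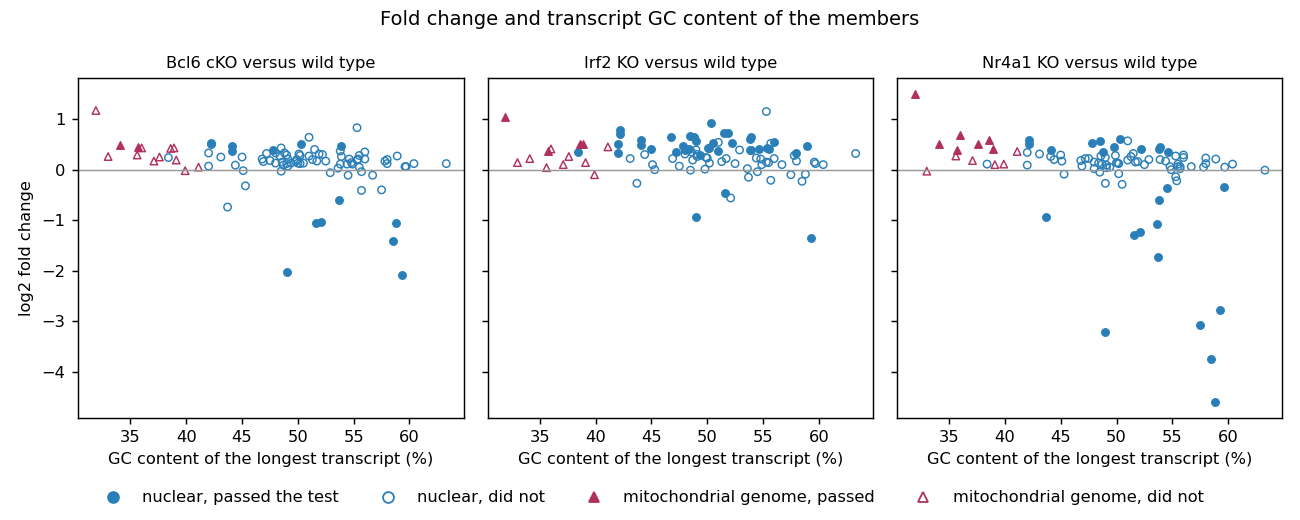
Log2 fold change against wild type (vertical axis) of each member over the GC content of its transcript in percent (horizontal axis). The transcript is the longest protein-coding one, or the longest where a gene had none. Symbols are as in the plot by complex. Mitochondrial members lie at 31.9% to 41.1%, and the deep falls in Nr4a1 KO include genes from 49.0% (Cox5b) to 59.3% (Atp5d).

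The knockouts were also set against each other, which leaves out the wild type levels. In Irf2 KO against Bcl6 cKO, 9 nuclear members were higher and none lower, with 9.55% of all genes called, 3.87% higher and 5.68% lower (Cox8a by 1.19, Cox5b by 1.09 and Cox6a1 by 0.97). In Nr4a1 KO against Bcl6 cKO, 10 nuclear members were lower and none higher, with 5.75% called, 0.776% higher and 4.97% lower, among them Cox6a1 (-3.54), Uqcrc1 (-2.67), Cox8a (-2.32) and Ndufa6 (-1.10). In Irf2 KO against Nr4a1 KO, 21 nuclear members were higher and Cox7a2l was lower, with 22.3% called, 12.4% higher and 9.94% lower. Mitochondrial members called by limma numbered 0 in each, and by voom also 0. In Irf2 KO against Nr4a1 KO, 1 was called lower with quantile normalization, with median centring or without Nr4a1 KO replicate 2, and 1 higher with the GC content and length correction. At an unadjusted p of 0.05 they numbered 2 lower in Irf2 KO against Bcl6 cKO, 2 lower in Irf2 KO against Nr4a1 KO, and 1 higher and 1 lower in Nr4a1 KO against Bcl6 cKO. The 9 calls in Irf2 KO against Bcl6 cKO became 0 without Bcl6 cKO replicate 1 or Irf2 KO replicate 2.

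Genes that build or serve the chain were counted from lists of their own, to be read against the shares of all genes called, which were 3.94% higher and 11.2% lower in Nr4a1 KO and 9.26% higher and 12.3% lower in Irf2 KO. Several list counts are near these shares. Of 17 complex I assembly factors tested, 1 rose and 4 fell in Nr4a1 KO, among them Nubpl (-2.07, adjusted p = 0.00208) and Ndufaf8 (-2.05, limma adjusted p = 6.9e-05), and 2 rose and 1 fell in Irf2 KO. Of 21 complex IV assembly factors, 2 rose and 4 fell in Nr4a1 KO, led by Coa6, a copper chaperone (-3.09, adjusted p = 0.000107), and Cox14 (-1.92, adjusted p = 2.3e-05), and 1 rose in Irf2 KO. Cox14 stood at 7.35 and 7.37 log2 CPM in wild type, 7.26 and 7.51 in Bcl6 cKO, 7.39 and 7.41 in Irf2 KO, and 5.33 and 5.54 in Nr4a1 KO, which alone was low. Of the complex V factors, Fmc1 was higher in Irf2 KO (0.66) and lower in Nr4a1 KO (-1.36), 1 of 5 in each.

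Of 17 genes for mobile electron carriers and coenzyme Q synthesis, none rose and 4 fell in Nr4a1 KO (Etfa by -2.05, Coq4 by -1.82, Coq9 by -1.76 and Coq5 by -1.58), and 3 rose and 1 fell in Irf2 KO, where 21.6% of all genes were called. Cycs, cytochrome c itself, stood at 7.95 and 7.82 log2 CPM in wild type, 8.22 and 8.07 in Bcl6 cKO, 8.60 and 8.88 in Irf2 KO, and 8.07 and 8.42 in Nr4a1 KO, and rose by 0.86 in Irf2 KO (limma adjusted p = 0.00551). Of 27 genes that copy, transcribe or process the mitochondrial genome, 5 fell and 1 rose in Nr4a1 KO, and the median log2 fold change of the 27 was 0.19. Polrmt, the mitochondrial RNA polymerase, fell by 1.33 (adjusted p = 0.00398) and Trmt10c, a subunit of mitochondrial RNase P, by 1.30 (adjusted p = 0.00122). Of 8 regulators of mitochondrial biogenesis, Myc (-2.21, adjusted p = 0.000567) and Nrf1 (-0.67, adjusted p = 0.0101) fell in Nr4a1 KO, and Nrf1 (-0.47, adjusted p = 0.0354) in Irf2 KO. Of 22 genes for inner membrane structure and transport, 6 rose and 1 fell in Irf2 KO, and 1 rose and 6 fell in Nr4a1 KO, with Chchd6, a cristae protein, at -2.36 (adjusted p = 5.7e-05). In Bcl6 cKO these lists held 2 calls lower and 1 higher.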

How the data were processed

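Classical monocytes of mouse bone marrow (Ly6C-high) were sequenced in 8 libraries, 2 for each of 4 genotypes. Per the labels' protocols, cDNA was made from 10 ng of RNA with the SMARTer Ultra Low kit, amplified for 12 to 15 cycles and read as pairs of 150 bases. Per the submitters' processing notes, STAR 2.7.9a, Subread featureCounts 2.0.3, Salmon 1.5.2 and limma were used on mm10. The authors deposited log2 CPM values per gene; unlogged, every value was a whole number of reads within 0.01. The authors also deposited p-values, used as an alternative, and signed linear fold changes, which were not used. Of 13789 rows, 45 repeated a gene and were left out.

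From these values limma 3.58.1 (R 4.3.3) was fitted on all 8 libraries with 4 group means and a trend of the prior variance, over 12752 genes with a mean of at least 0 log2 CPM. Tests were two-sided with Benjamini-Hochberg adjustment over all of them and a threshold of 0.05, and the fit was tested on simulated data. Of planted 1.5-fold changes against wild type 13.6% to 18.2% were called, of 2-fold ones 52.2% to 67.2% and of 4-fold ones 86.6% to 91%. Unchanged genes made up at most 5.83% of the calls. Transcript lengths, GC content and 50-base words came from GENCODE M21. Length and GC content were those of the longest protein-coding transcript, or of the longest transcript where a gene had none. The 50-base words were those of the longest transcript of any kind. By the naming rule the text gives all mitochondrial members, up to 8 largest rises and falls per comparison with wild type among called members whose libraries do not overlap, the extremes of each complex per kilobase, isoform sets, members called in all 3 comparisons and up to 3 called genes per context list. A gene that the rule names is not reported here. Other genes, partner subunits and copies were named after their values were seen. Members and lists were chosen with earlier results of these data known. Alternatives covered scaling, filter, variance prior, weights, voom, GC content and length, blocking and leaving out each library. Arithmetic on reads covers counting error only.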

Additional observations from a re-analysis of the deposited data

How the results depend on the processing

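The replicate numbers did not pair the libraries: the correlation of their differences between genotypes ran from 0 to 0.18. With a replicate block, the members called numbered 31 in Nr4a1 KO, 44 in Irf2 KO and 15 in Bcl6 cKO against wild type (32, 42 and 16 without it), and 9, 11 and 24 in Irf2 KO against Bcl6 cKO, Nr4a1 KO against Bcl6 cKO and Irf2 KO against Nr4a1 KO (9, 10 and 22 without it). Without a trend of the prior variance the counts were 19, 20 and 4 against wild type and 0, 6 and 14 between knockouts, in the same orders. Where the count was 0, 19 nuclear members were higher at an unadjusted p of 0.05 with the trend, and voom called 10. With only the 2 groups compared, 19 passed in Nr4a1 KO. With the GC content and length correction, alone or with the block, 9 passed in Bcl6 cKO and 20 in Irf2 KO. With the correction alone, 7 and 15 of these were also called without it. Once median centring was added to the correction (chosen after seeing the data), 10, 20 and, for Irf2 KO against Bcl6 cKO, 5 passed.

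The nuclear minus mitochondrial value under the correction, with or without centring, was 0.14, 0.22 and 0.12 in Bcl6 cKO, Irf2 KO and Nr4a1 KO. Among members whose sign turned under the correction were Atp5g2 in Nr4a1 KO (0.48, and 0.51 with centring) and mt-Nd6 in Bcl6 cKO (-0.01) and Nr4a1 KO (-0.08, and -0.06 with centring). Others were Ndufs7 in Nr4a1 KO (0.10, called lower before) and Cox7c in Irf2 KO (-0.07, called higher before), neither called after it. Median centring raised the all-gene median in Nr4a1 KO from 0.01 to 0.14; nuclear members higher and lower then numbered 27 and 11 (12 and 13 before), 48 and 2 in Irf2 KO, and 12 and 6 in Bcl6 cKO. Under the GC correction they were 18 and 12 in Nr4a1 KO, and 16 and 5 in Irf2 KO against Nr4a1 KO (21 and 1 before). These were not all the same genes. Of the 32 members of both genomes called in Nr4a1 KO, 18 remained called, and of the 22 in Irf2 KO against Nr4a1 KO, 16 did. The causes of these moves were not tested.

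Leaving out each library in turn, the members called ranged from 1 to 21 in Bcl6 cKO, 19 to 44 in Irf2 KO, 16 to 29 in Nr4a1 KO, 0 to 11 in Irf2 KO against Bcl6 cKO, 5 to 9 in Nr4a1 KO against Bcl6 cKO and 13 to 24 in Irf2 KO against Nr4a1 KO. In Bcl6 cKO the lowest count, 1, was without Bcl6 cKO replicate 1, with 3 and 4 without wild type replicates 1 and 2, and 5 without Bcl6 cKO replicate 2. In Nr4a1 KO, 16 was without wild type replicate 2. A genotype with 1 library left was assumed to vary like the others. The nuclear minus mitochondrial value ranged from -0.26 to -0.14, -0.03 to 0.15 and -0.41 to -0.16. The authors' deposited table called 21, 44 and 27 members against wild type. Where the limma test is limited to 2 libraries a genotype, a difference that missed the threshold was not detectable here rather than absent.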
